A study of Mus musculus with 30 samples.

Results

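The regions described here are stretches of mouse chromatin that carried a peak of acetylated lysine 27 of histone H3 (H3K27ac) in 3 of 4 settings and had none in the fourth, Tnm2 cells treated with UNC0638. Overlapping or touching peaks of the 4 deposited lists on chromosomes 1 to 19 and X were merged, and members were chosen by which lists had a peak in the merged region. A member had one in both CK1750 lists and in the DMSO list of Tnm2, and none in the UNC0638 list of Tnm2. Of 37671 merged regions, 3261 were members, and 12885 had a peak in all 4 lists. The rule itself set the direction of loss, so the absence of a Tnm2 UNC0638 peak is how the regions were chosen and not a result.

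CK1750 and Tnm2 are mouse lung adenocarcinoma cell lines, each 1 line, grown in serum-containing medium and exposed to DMSO as solvent control or to UNC0638 at 1 µM. The CK1750 DMSO list stood for 3 H3K27ac samples, and the lists of CK1750 with UNC0638, Tnm2 with DMSO and Tnm2 with UNC0638 for 2 samples each. By their replicate numbers, 2 of the 3 CK1750 DMSO samples belong to 1 replicate, and both samples of CK1750 with UNC0638 carry the same number, so that list stood for 1 numbered replicate and the others for 2. The labels name a single merged list for every group, so no value has a spread between replicates and no difference between lists could be tested. Scores are those of the authors' peak caller, -10 log10 of P with a cutoff at 50, and were ranked within a list only.

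H3K27ac is deposited by the acetyltransferases p300 and CBP and marks active promoters and enhancers. The methyltransferases G9a and Glp place mono- and dimethylation on H3K9, a feature of silent chromatin, and UNC0638 inhibits both enzymes by occupying their substrate site. H3K27ac at a promoter accompanies transcription of the gene, while H3K27ac in introns or between genes often marks enhancers that act from a distance.

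The regions that recur below are shown by their reference sequence, read from RefSeq (GRCm38.p6, the mm10 build of the lists) from 5′ to 3′. The first 4 are promoters from 250 bases before to 50 after a gene's start, each lying wholly inside a member region. Ahcyl2 (chr6:29768193-29768492, + strand) and Tcf7l1 (chr6:72788996-72789295, - strand) are shown as high-scoring promoters, Kcnq1ot1 (chr7:143296498-143296797, - strand) as the promoter of a noncoding RNA in a run of members, and Cep290 (chr10:100487332-100487631, + strand) for the genes of the primary cilium. Capitals mark the letters TGANTCA (AP-1), GGGCGG (GC box of SP and KLF factors), CCAATCA (NF-Y) and CCGGAAG (ETS), searched on both strands, which can abut or overlap.
Ahcyl2: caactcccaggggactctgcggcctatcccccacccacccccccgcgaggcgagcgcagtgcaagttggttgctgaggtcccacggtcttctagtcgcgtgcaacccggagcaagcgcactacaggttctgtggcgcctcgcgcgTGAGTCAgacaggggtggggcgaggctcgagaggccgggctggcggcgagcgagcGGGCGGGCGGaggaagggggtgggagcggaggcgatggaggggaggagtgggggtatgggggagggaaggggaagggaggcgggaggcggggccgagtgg
Tcf7l1: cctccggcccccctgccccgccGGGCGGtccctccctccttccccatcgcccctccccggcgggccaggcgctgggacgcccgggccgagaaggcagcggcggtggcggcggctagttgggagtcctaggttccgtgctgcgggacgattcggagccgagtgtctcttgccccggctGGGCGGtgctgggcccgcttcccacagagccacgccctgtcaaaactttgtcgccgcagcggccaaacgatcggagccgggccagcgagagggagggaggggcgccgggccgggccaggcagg
Kcnq1ot1: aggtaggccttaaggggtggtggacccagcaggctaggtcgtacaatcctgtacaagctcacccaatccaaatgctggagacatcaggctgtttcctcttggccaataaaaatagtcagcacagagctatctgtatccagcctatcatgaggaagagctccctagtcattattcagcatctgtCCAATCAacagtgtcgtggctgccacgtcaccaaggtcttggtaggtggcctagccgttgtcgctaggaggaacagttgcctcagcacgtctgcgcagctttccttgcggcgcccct
Cep290: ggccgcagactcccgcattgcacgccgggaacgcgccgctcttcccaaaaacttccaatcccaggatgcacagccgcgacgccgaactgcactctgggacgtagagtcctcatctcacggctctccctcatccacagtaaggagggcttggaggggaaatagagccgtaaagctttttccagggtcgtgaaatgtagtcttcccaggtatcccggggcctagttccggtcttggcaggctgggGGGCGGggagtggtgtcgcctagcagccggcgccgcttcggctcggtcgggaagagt
The Ahcyl2 promoter held 1 AP-1 match and 2 overlapping GC box matches, Tcf7l1 held 2 GC boxes, Cep290 held 1 GC box, and Kcnq1ot1 held 1 NF-Y match. CpG dinucleotides numbered 28 in Ahcyl2, 34 in Tcf7l1, 25 in Cep290 and 9 in Kcnq1ot1. None of the 4 windows held the ETS letters. Over 32851 promoters of the same length in the RefSeq table, 35.7% held the GC box letters, 8.86% the ETS letters, 7.82% the NF-Y letters and 7.81% the AP-1 letters.

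Members away from promoters are shown by 201 bases centred on the AP-1 match nearest the middle of the region, on the + strand, with that match in capitals. They lie in an intron of Arid5b (chr10:68249623-68249823), between genes in the neighbourhood of Pdzk1ip1 (chr4:115103575-115103775) and in an intron of Fars2 (chr13:36695191-36695391).
Arid5b: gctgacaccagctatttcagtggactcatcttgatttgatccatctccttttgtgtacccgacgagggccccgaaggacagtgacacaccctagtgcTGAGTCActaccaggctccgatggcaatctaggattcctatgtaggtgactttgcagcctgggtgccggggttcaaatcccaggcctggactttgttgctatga
Pdzk1ip1: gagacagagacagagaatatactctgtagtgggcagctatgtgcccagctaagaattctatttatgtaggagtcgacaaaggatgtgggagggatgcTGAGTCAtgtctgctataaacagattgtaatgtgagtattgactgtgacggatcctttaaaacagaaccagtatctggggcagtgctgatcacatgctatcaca
Fars2: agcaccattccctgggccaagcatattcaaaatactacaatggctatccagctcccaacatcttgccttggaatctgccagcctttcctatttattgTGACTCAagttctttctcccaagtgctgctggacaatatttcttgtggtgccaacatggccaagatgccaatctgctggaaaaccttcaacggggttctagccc
The windows were placed on an AP-1 match, so its presence is no finding. In the 1000 bases centred on each region, 34.8% of all 37671 merged regions held TGANTCA. A match describes letters and does not show that a factor was bound.

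Members made up a sizeable part of what Tnm2 lacked with UNC0638. Of 27684 regions with a Tnm2 DMSO peak, 12023 had no Tnm2 UNC0638 peak (43.4%), and 3261 of these were members. Of the 16146 regions with a peak in the other 3 lists, members were 20.2% (Wilson 95% interval 19.6 to 20.8%; such intervals cover counting error only). The mirror set, missing only in treated CK1750, held 538 of 13423 regions (4.01%), and 5634 of 24261 CK1750 DMSO regions (23.2%) lacked a CK1750 UNC0638 peak. The lists differed in size, with 27340 peaks in CK1750 DMSO, 24592 in CK1750 UNC0638, 30631 in Tnm2 DMSO and 18789 in Tnm2 UNC0638. The smallest list was thus the one in which members had to lack a peak, sequencing depth is unknown, and a shallower list cannot be told apart from a loss of the mark. When each list was cut to its 18789 highest-scoring peaks, 1281 regions were members (10.2%).

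Score in Tnm2 DMSO went with membership. The median member scored 132.9 in CK1750 DMSO, 133.83 in CK1750 UNC0638 and 110.24 in Tnm2 DMSO, against 461.85, 449.88 and 406.34 for regions in all 4 lists. In percentiles of their own list the members' medians were 46.0, 41.5 and 41.2, near or below the middle of each list. Of regions with a Tnm2 DMSO score of 50 to 75, 794 of 1060 were members (74.9%). The share was 49.2% at scores of 100 to 150, 14.5% at 200 to 300 and 3.20% at 300 to 500. At 500 and over, 11 of 5358 were members (0.205%, interval 0.115 to 0.367%). In promoter regions and in other regions the share fell with score. It was 72.9% and 76.3% at scores of 50 to 75 and 28.9% and 29.2% at 150 to 200. Promoter regions had the higher share at 75 to 100 (63.2% and 58.6%) and at 100 to 150 (52.1% and 46.5%). In every other class they had the lower share, and the intervals overlapped in all classes. The mirror set in CK1750 fell likewise, from 29.7% at CK1750 DMSO scores of 50 to 75 to 0.0164% at 500 and over.

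**Figure D1:**
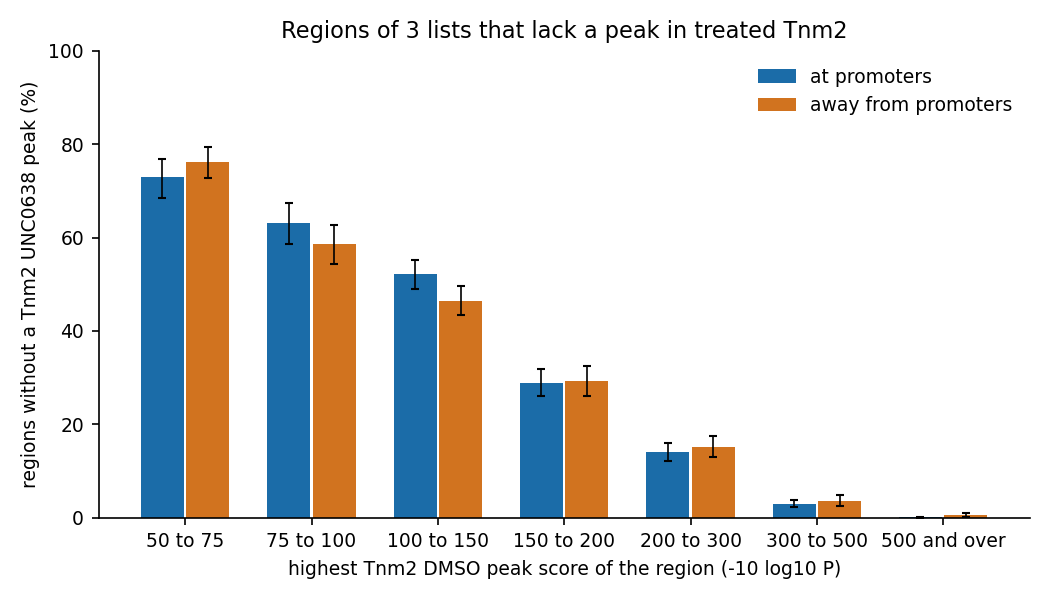
Share of regions with peaks in CK1750 DMSO, CK1750 UNC0638 and Tnm2 DMSO that had no Tnm2 UNC0638 peak (vertical axis, percent), by highest Tnm2 DMSO score (horizontal axis, -10 log10 P), for regions at promoters and away from them. Bars are shares and whiskers Wilson 95% intervals; the share fell from 72.9% and 76.3% in the lowest class to 0.119% and 0.518% in the highest.

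Regions lay on both sides of the line that the rule drew. The 3 members nearest to a Tnm2 UNC0638 peak were separated from it by 2 bp (intron of 9130204K15Rik), 3 bp (near N6amt1) and 6 bp (Fbln2). On the other side, the lowest Tnm2 UNC0638 scores among regions in all 4 lists were 50.01 (near Abcc12), 50.02 (Pfn2) and 50.02 (Sgf29), at the cutoff of 50. In all, 338 of 12885 regions in all 4 lists scored under 55 in Tnm2 UNC0638 (2.62%) and 3356 scored under 100 (26.0%). A small difference in that list would have moved regions across the line in either direction.

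**Figure D2:**
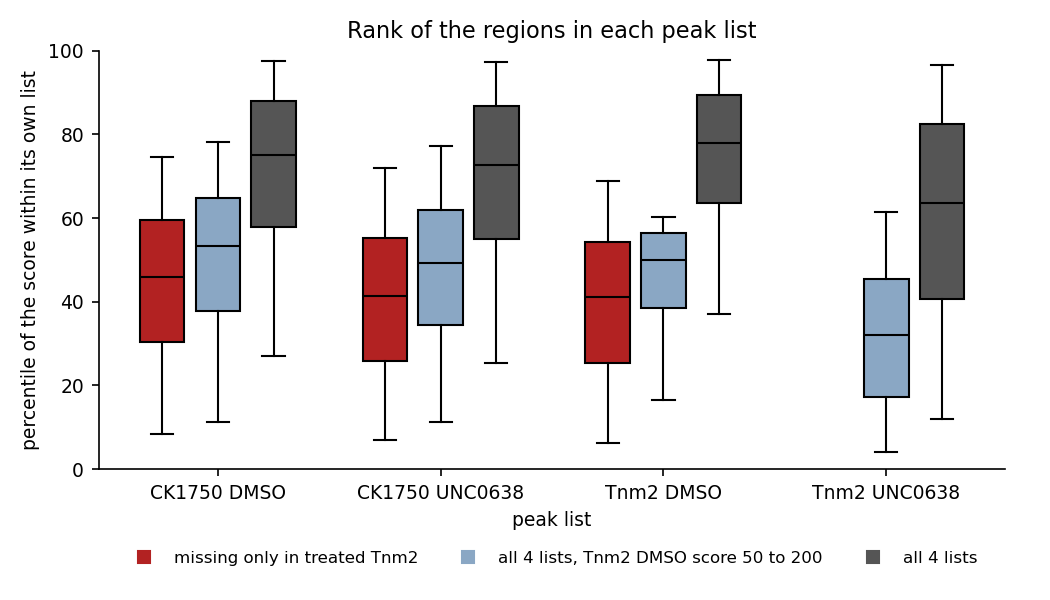
Percentile of each region's score within its own list (vertical axis) in the 4 lists (horizontal axis) for the 3261 members, for regions in all 4 lists with Tnm2 DMSO scores of 50 to 200 (2807), and for all 12885 regions in all 4 lists. Boxes span the quartiles with the median as a line, and whiskers run from the 5th to the 95th percentile of regions; the members' medians lie at 46.0, 41.5 and 41.2, and members have no value in Tnm2 UNC0638.

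The members held 4.05 Mb and had a median width of 1124 bp, against 1766 bp for regions in all 4 lists. For Tnm2 DMSO scores of 50 to 75 the medians were 998.5 and 1181.5 bp, and for scores of 100 to 150 they were 1097 and 1328 bp. A region in all 4 lists is merged from peaks of 4 lists and a member from peaks of 3, so the rule itself favours narrower members and nothing is read from these widths. Promoters, taken as 1 kb on each side of an annotated transcription start site (TSS), held 1595 members (48.9%, interval 47.2 to 50.6%) and 65.5% of regions in all 4 lists (interval 64.7 to 66.3%). Within Tnm2 DMSO scores of 50 to 200 the promoter shares were 47.9% and 48.8%, with overlapping intervals. Scores in that range were not alike, at medians of 100.39 and 139.89. By narrower classes, members had 39.7% and regions in all 4 lists 44.0% at scores of 50 to 75. The shares were 48.4% and 43.7% at 75 to 100, 51.7% and 46.1% at 100 to 150, and 53.3% and 53.7% at 150 to 200. The intervals overlapped in each class, and the order was not the same throughout. By their centre, 48.7% of members lay in introns, 27.5% between genes and 23.7% in exons. Regions missing only in treated CK1750 were at promoters in 23.6% of cases and regions lost with UNC0638 in both lines in 24.5%, so members stood between these sets and the regions in all 4 lists.

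Base composition differed more between promoters and other places than between members and other regions. At Tnm2 DMSO scores of 50 to 200, promoter members had a median GC content of 56.9% and a CpG observed-to-expected ratio of 0.638. Other members had 47.6% and 0.194. Regions in all 4 lists with Tnm2 DMSO scores of 50 to 200 had 55.8% and 0.616 at promoters, and 47.5% and 0.190 elsewhere. The AP-1 letters stood in 48.7% of non-promoter members in that score range and in 48.1% of the corresponding regions in all 4 lists. GC boxes stood in 75.6% of promoter members (interval 73.2 to 77.8%) and in 72.3% of their counterparts (interval 69.9 to 74.6%). TEAD letters (GGAATG), the site of the partners of YAP, stood in 48.4% of non-promoter members (interval 45.8 to 51.0%) and in 52.8% of their counterparts (interval 50.2 to 55.4%). RUNX letters (TGTGGTT) went the other way, with 26.99% against 23.9%. The intervals of these 4 motifs overlapped between members and counterparts. Repeats differed more. Regions repeat-masked over more than 50% of their length were 4.01% of members in that score range (interval 3.35 to 4.80%). Among regions in all 4 lists they were 2.24% (interval 1.76 to 2.86%). Away from promoters the shares were 7.09% (interval 5.89 to 8.52%) and 3.96% (interval 3.07 to 5.10%). By the criterion given below, 34 members had 10 or more near-identical copies, with a median repeat-masked share of 74.1%. The corresponding 32 regions in all 4 lists had a median of 29.0%. The intervals treat such copies as independent regions, and their part in the difference was not tested.

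Of the 10 members with the highest Tnm2 DMSO scores, 4 lay at promoters and 4 in introns, 1 in an exon of Faim2 and 1 between genes. The highest stood near the start of the predicted gene Gm13412, with scores of 491.88 in CK1750 DMSO, 305.8 in CK1750 UNC0638 and 641.81 in Tnm2 DMSO (chr2:32523288-32525909), and the nearest Tnm2 UNC0638 peak was 592 bp away. Ahcyl2, an IP3 receptor-binding protein related to adenosylhomocysteinase, scored 807.39, 622.28 and 606.04 in the same order (chr6:29767543-29769586), and its nearest Tnm2 UNC0638 peak was 30.2 kb away. It was thus high in each of the 3 lists, and its lowest score was the highest lowest score of any member. An intron of E130114P18Rik scored 585.27, 371.55 and 598.52. The promoter of Zfp950, a zinc finger protein gene, scored 341.41, 256.08 and 574.36, and that of Cdk10, a cyclin-dependent kinase, 373.14, 497.73 and 567.2. Introns of Fars2, the mitochondrial phenylalanyl-tRNA synthetase, and of Pde4d, a cyclic AMP phosphodiesterase, held members with Tnm2 DMSO scores of 567.02 and 557.03. These lay only 365 and 179 bp from a Tnm2 UNC0638 peak. The member between genes, 43.4 kb from the TSS of 4930459C07Rik, scored 249.51, 309.88 and 540.67 in the order above, and its nearest Tnm2 UNC0638 peak was 238.8 kb away.

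Other members were ranked by their lowest score over the 3 lists. Tcf7l1, a repressor of Wnt target genes, had scores of 608.03, 539.07 and 435.11 at its promoter and was 108.7 kb from the nearest Tnm2 UNC0638 peak. Rnf185, a ubiquitin ligase of the endoplasmic reticulum, had 858.43, 646.92 and 463.03. Tuba1a, an alpha-tubulin, had 652.02, 615.43 and 406.53. These promoters stood well above the cutoff of 50 in every list that had them. Further members by this ranking lay in 2500002B13Rik and Faim2, at the promoter of Fam71f1 and near Wdr49, with lowest scores of 537.49, 534.65, 470.18 and 431.97.

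Some members ranked far higher in CK1750 than in Tnm2. Of 3261 members, 431 stood over 30 percentile points higher in CK1750 DMSO than in Tnm2 DMSO (13.2%) and 228 stood over 30 points lower (6.99%). At Tnm2 DMSO scores of 50 to 200 the share higher was 15.3% of members and 10.4% of regions in all 4 lists. Within that range members still scored lower in Tnm2 DMSO, at medians of 100.39 and 139.89. Membership went with that score, and its rank enters the difference, so nothing is read from the 2 shares. The largest difference was between genes near Dop1b, at percentiles 81.3 in CK1750 DMSO and 5.01 in Tnm2 DMSO. That region was repeat-masked over 73.3% of its length. By the criterion given below it had 43 near-identical copies elsewhere in the genome, so its reads cannot be placed with certainty. The promoter of Enah, an actin regulator, stood at percentiles 85.7 and 10.9. Among promoters with high CK1750 scores, picked after the values were seen, that of Zbtb10, a zinc finger repressor gene, had 3100 in both CK1750 lists and 83.23 in Tnm2 DMSO. Foxd1, a forkhead factor, had 2249.95 in CK1750 DMSO, 1477.77 in CK1750 UNC0638 and 96.02 in Tnm2 DMSO, and Ptger4, a prostaglandin E2 receptor, had 1650.22, 1657.42 and 156. In the Tnm2 DMSO list these 3 promoters stood at percentiles 29.3, 35.7 and 53.5, and in the CK1750 DMSO list at 98.8, 95.9 and 93.4.

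The CK1750 lists also show how members ranked when CK1750 was treated. Members' percentiles were lower with UNC0638 than with DMSO by a median of 3.86 points (-3.86), and 1951 of 3261 (59.8%) were lower. Regions in all 4 lists had a median difference of -1.42 points, with 7600 of 12885 (59.0%) lower. At Tnm2 DMSO scores of 50 to 200 the median differences were -3.91 and -2.77 points. Percentiles lower by over 20 points occurred in 17.1% of members and 5.85% of regions in all 4 lists, and percentiles higher by over 20 points in 9.54% and 3.93%. At Tnm2 DMSO scores of 50 to 200 these shares were 17.98% and 13.5% lower, and 10.4% and 8.87% higher. Moves of over 20 points were thus more frequent among members in both directions, but by less within that score range. Starting ranks in CK1750 were not alike. In that range the median CK1750 DMSO percentile was 43.6 for members and 53.2 for regions in all 4 lists. Ranks in a list depend on every other peak in it, so these differences describe order and not amount of the mark.

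**Figure D3:**
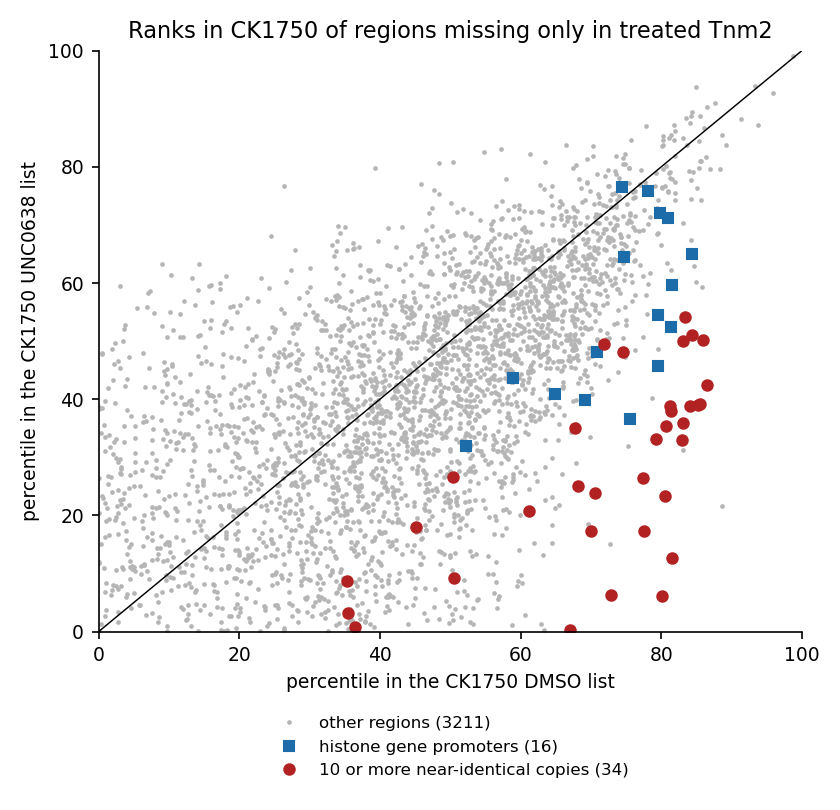
Percentile of each member's score in the CK1750 DMSO list (horizontal axis) and in the CK1750 UNC0638 list (vertical axis), with the line of equality. All 34 members with 10 or more near-identical copies lie below the line, as do 15 of 16 histone gene promoters; the other 3211 members spread on both sides.

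Some of the members that ranked lower with UNC0638 had a sequence that occurs elsewhere in the genome. Of the 559 members lower by over 20 points, 506 had no near-identical copy by the criterion that follows. Near-identical copies, covering at least 80% of the region at 95% identity or more, were found for 70 members (2.15%) and for 156 regions in all 4 lists (1.21%). The 34 members with 10 or more copies had CK1750 DMSO scores from 95.39 to 937.63 with a median of 552, CK1750 UNC0638 scores from 50.19 to 209.01 with a median of 95.4, and Tnm2 DMSO scores from 51.76 to 281.04 with a median of 84.5. All 34 stood over 20 percentile points lower in CK1750 UNC0638 than in CK1750 DMSO, with median percentiles of 29.8 and 78.4, against 506 of 3191 members with no copy. Of the 34, 17 aligned with one another and lay on 11 chromosomes, and 11 formed another such group on 7 chromosomes. The 32 regions in all 4 lists with 10 or more copies also ranked lower in CK1750 with UNC0638, at median percentiles of 30.4 and 70.7. Reads from such copies cannot be placed with certainty, so the 34 regions are not independent, and the part of read placement in their ranks was not tested. Without members and other regions that have a copy, 3191 members remained (20.04% of the regions with a peak in the 3 other lists).

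The widest members included repeated sequence. The widest, 4677 bp in an intron of Ndst3, a heparan sulfate sulfotransferase, was repeat-masked over 92.0% of its length and had no near-identical copy by the criterion above. It scored 1080.7 in CK1750 DMSO, 77.68 in CK1750 UNC0638 and 63.08 in Tnm2 DMSO. The next were at Dab2ip, a Ras GTPase-activating protein (4184 bp; scores of 190.1, 255.39 and 432.66), at Sprr2a2, a small proline-rich protein of the cornified envelope (4080 bp), and at Ly6e, a GPI-anchored protein (4076 bp). Within the lists, Dab2ip ranked highest in Tnm2 DMSO, at percentile 79.2, and Ndst3 and Sprr2a2 ranked highest in CK1750 DMSO, at percentiles 88.7 and 84.2. Sprr2a2 had 2 near-identical copies.

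Most members lay within 50 kb of a peak that Tnm2 had with UNC0638. These distances were not taken for other regions or positions, so nothing particular to members is read from them. The median distance to the nearest Tnm2 UNC0638 peak was 15.9 kb, with 352 members within 1 kb (10.8%) and 2539 within 50 kb (77.9%). Promoter members were farther, at a median of 20.2 kb, than the others, at 11.6 kb. The members farthest from any Tnm2 UNC0638 peak lay between genes near Gm41276 (3578.2 kb), at the promoter of the zinc finger gene Zik1 (1926.5 kb) and near Ralyl (1856.0 kb). Away from promoters, the nearest gene had a promoter region in Tnm2 DMSO for 1281 of 1666 members, and for 1085 of these (84.7%, interval 82.6 to 86.6%) that promoter kept a Tnm2 UNC0638 peak. At Tnm2 DMSO scores of 50 to 200 the share was 85.1% for members (interval 82.8 to 87.02%) and 88.0% for regions in all 4 lists (interval 86.0 to 89.7%), with overlapping intervals.

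Some members were neighbours of one another. Counting adjacent regions with peaks in the 3 lists, 1965 members (60.3%) had no member as a neighbour, and there were 429 runs of 2, 110 of 3, 22 of 4 and 4 of 5. Since members were 20.2% of these regions, most neighbours of a member were other regions in any case, and the share standing alone is given as a count only. The runs of 5 lay at Arid5b, from the neighbourhood of Areg to beyond Gm19619, from Pdzk1ip1 to Cyp4b1, and from Ndst3 to Gm42827 over 2621.7 kb. The fifth named run was the run of 4 with the highest Tnm2 DMSO score, from Cd81, a tetraspanin, over Tssc4 to Kcnq1ot1 on chromosome 7. Its last region, at the start of Kcnq1ot1, the noncoding RNA that silences imprinted neighbours on the paternal chromosome, scored 177.37 in CK1750 DMSO, 55.38 in CK1750 UNC0638 and 391.5 in Tnm2 DMSO. This promoter thus ranked high in Tnm2 DMSO and close to the cutoff in treated CK1750. In the run named for Areg, which encodes the EGFR ligand amphiregulin, 2 of the 5 members had the Areg TSS as the nearest, at 67.3 and 69.3 kb, and the other 3 that of Gm19619. The 5 scored from 50.66 to 153.6 in Tnm2 DMSO, from 55.37 to 139.11 in CK1750 DMSO and from 56.23 to 151.44 in CK1750 UNC0638. The run from Pdzk1ip1 to Cyp4b1, a lung cytochrome P450, reached 274.89 in Tnm2 DMSO, 920.35 in CK1750 DMSO and 713.9 in CK1750 UNC0638.

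Arid5b, a DNA-binding protein that recruits the H3K9 demethylase Phf2, had more members than any other protein-coding gene apart from a readthrough gene model. Of 9 regions with peaks in the 3 lists in the gene or within 10 kb of it (chr10:68092520-68278740, - strand), 7 were members and 2 kept a Tnm2 UNC0638 peak. The region at the 5′ TSSs was kept, with scores of 416.25 in CK1750 DMSO, 390.04 in CK1750 UNC0638, 485.75 in Tnm2 DMSO and 209.49 in Tnm2 UNC0638. At the internal TSS, 142.1 kb downstream, the member scored 1349.33, 1051.52 and 216.46 in the first 3 lists. The other 6 members scored from 58.92 to 193.53 in Tnm2 DMSO. The 2 TSS regions of 1 gene therefore fell on opposite sides of the rule. The 14 members of the readthrough model Gm20388 were spread over 4434.9 kb and 74 regions of the 3 lists. Protein-coding genes with 5 members were Dnm3, a dynamin, Lmo7, an adherens junction protein, Nedd4l, a ubiquitin ligase, Trappc9, a trafficking protein, and Fgfr2. The annotated span of Fgfr2, 2960.9 kb, covers other genes. Genes of other kinds were not counted.

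**Figure D4:**
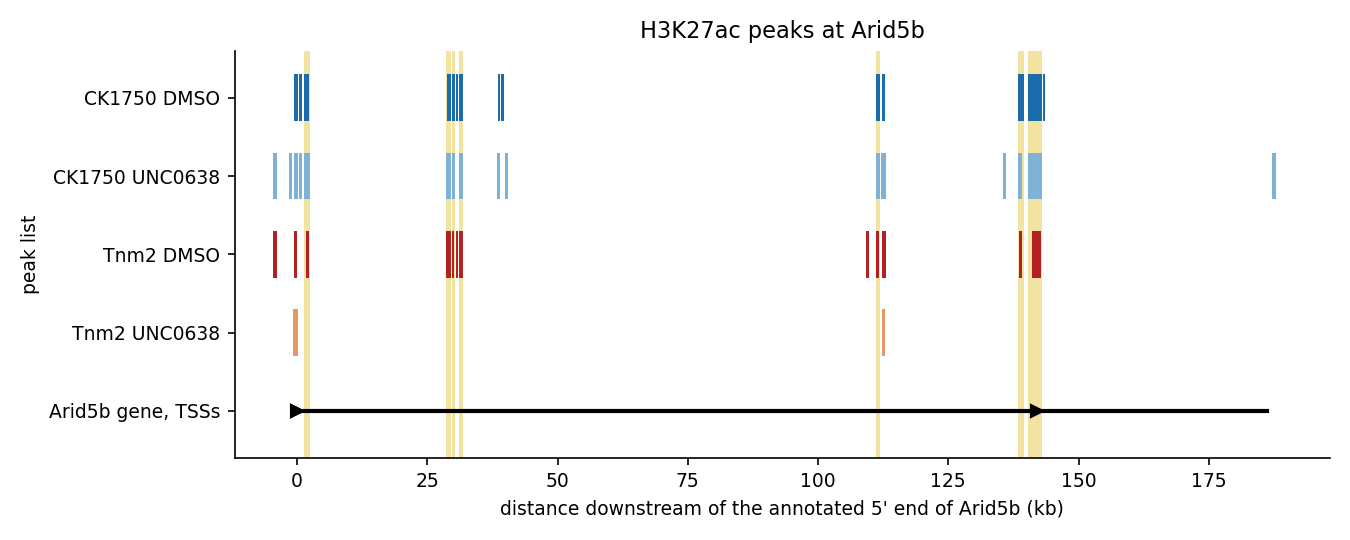
H3K27ac peaks of the 4 lists (rows) over Arid5b, by distance downstream of its annotated 5′ end (horizontal axis, kb), with the gene as a line and its TSSs as arrowheads. Filled boxes are peaks and yellow bands the 7 members; Tnm2 UNC0638 had a peak at the 5′ TSSs and at 1 intronic region.

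Promoters were then read by gene. Of 9633 protein-coding genes with a region of the 3 lists at a promoter, 1266 had no Tnm2 UNC0638 peak at any promoter (13.1%, interval 12.5 to 13.8%), and a further 285 had a member at 1 promoter region while another region kept a peak. Since membership went with score, each list's count was also set beside the count it would have if its genes were lost at the share of all genes with like Tnm2 DMSO scores. This comparison is a description and not a test.

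Genes of the primary cilium, the sensory antenna of the cell, lacked a Tnm2 UNC0638 peak at 10 of 32 promoters (31.2%, interval 17.95 to 48.6%), with 9.31 at the common score shares. They were Arl13b, B9d1, B9d2, Bbs10, Cep290, Ift43, Ift57, Kif3a, Kif7 and Tctn1. B9d2, of the transition zone, scored 82.87 in CK1750 DMSO, 105.77 in CK1750 UNC0638 and 136.6 in Tnm2 DMSO. Cep290, also of the transition zone, scored 149.66, 198.09 and 129.84. B9d1 scored 150.75, 69.69 and 111.69, and Arl13b, a ciliary GTPase, 277.16, 253.07 and 95.05. The median Tnm2 DMSO score over the 32 genes of the list was 208.4, against 445.1 for all genes.

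Cell cycle genes lacked the peak at 9 of 29 promoters (31.0%, interval 17.3 to 49.2%), with 7.47 at the common score shares. The inhibitor Cdkn1a (p21) scored 645.58 in CK1750 DMSO, 525.88 in CK1750 UNC0638 and 234.76 in Tnm2 DMSO. The G1 kinase Cdk4 scored 350.72, 319.75 and 204.99. The tumour suppressor locus Cdkn2a scored 315.52, 452.12 and 145, and the phosphatase Cdc25a 118.46, 133.64 and 135.91. Activators and inhibitors of the cycle thus both stood among them. The others were Cdk2, Ccne2, Bub1b, and the proliferation genes Mki67 and Top2a, whose Tnm2 DMSO scores of 60.26 and 59.46 lay close to the cutoff.

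Mitochondrial ribosomal proteins lacked the peak at 14 of 68 promoters (20.6%, interval 12.7 to 31.6%), with 10.9 at the common score shares, and cytosolic ribosomal proteins at 3 of 75 (4%, interval 1.37 to 11.1%), with 2.20. Both lists serve protein synthesis, in the mitochondrion and in the cytosol. The median Tnm2 DMSO score was 339.1 for the mitochondrial list and 818.3 for the cytosolic one. Mrpl39 scored 180.66 in CK1750 DMSO, 192.22 in CK1750 UNC0638 and 263.06 in Tnm2 DMSO. Mrps24 scored 96.03, 57.12 and 216.79, and Rplp1, of the ribosomal stalk, 402.35, 365.21 and 280.13. The other cytosolic genes were Rpl14 and Rps21.

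The signalling lists had from 0 to 3 genes that lacked the peak. The TGF-beta pathway had 3 of 27 (11.1%), with 1.89 at the common score shares, and all 3 were ligands. Tgfb2 scored 360.44 in CK1750 DMSO, 271.57 in CK1750 UNC0638 and 221.92 in Tnm2 DMSO, Tgfb3 scored 539.69, 404.42 and 200.22, and Bmp4 scored 384.64, 374.98 and 133.06. The transducer Smad3 and the receptor Tgfbr1 each had a member at 1 promoter region beside a kept one. The Wnt list had 1 of 21, Tcf7l1, with 0.742 at the common score shares, and the receptor Fzd7 had a member beside a kept region. The Notch list had 1 of 18, Psen2, a subunit of gamma-secretase, with 1.71. The Ras-MAPK list had 2 of 39 (5.13%), the kinase Araf and the receptor Erbb3, with 2.64, and Etv5, Map2k2 and Spred3 had a member beside a kept region. The YAP/TEAD list had 0 of 24, with an upper bound of 13.8% and 0.712 at the common score shares, and Axl and Ptpn14 had a member beside a kept region. The AP-1 family had 0 of 16, with 0.625, and the basement membrane and integrin list 0 of 20, with 2.12. In these lists Fosb, Itgb5 and Col18a1 had a member beside a kept region. The median Tnm2 DMSO score was 738.5 in the YAP/TEAD list and 1120.7 in the AP-1 family, above the 445.1 of all genes, and 454.0 in the basement membrane list.

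Chromatin genes were read in the same way. Among H3K9 methyltransferases and demethylases, 1 of 17 lacked the peak, with 1.81 at the common score shares. It was Setdb1, an H3K9 methyltransferase, with 238.23 in CK1750 DMSO, 83.7 in CK1750 UNC0638 and 234.27 in Tnm2 DMSO. Jmjd1c, a member of the Kdm3 family, had a member beside a kept region. In the histone acetylation list 4 of 23 lacked it (17.4%, interval 6.98 to 37.1%), with 3.43 at the common score shares. They were the deacetylases Hdac3, Hdac6 and Sirt2 and the acetyltransferase Kat2a. Of the 10 genes that the study tied to G9a, 1 had a region of the 3 lists at a promoter, and it kept a Tnm2 UNC0638 peak.

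Epithelial and mesenchymal genes were both represented. The epithelial list had 2 of 13 (15.4%), Ocln and Ovol2, with 0.993 at the common score shares, and the mesenchymal list 3 of 12 (25%, interval 8.89 to 53.2%), Snai2, Prrx1 and Col1a1, with 1.503. Cdh1, the epithelial cadherin, had a member beside a kept region. Ocln, a tight junction protein, scored 85.42 in CK1750 DMSO, 59.67 in CK1750 UNC0638 and 333.98 in Tnm2 DMSO. Snai2, a repressor of epithelial genes, scored 346.75, 310.71 and 202.65. The lung epithelial lineage had 0 of 13, with an upper bound of 22.8%. Promoter peaks of lung epithelial markers were found for 7 of 10 genes in each CK1750 list and in Tnm2 DMSO and for 8 of 10 in Tnm2 UNC0638, with Epcam and Sftpc absent from all lists. Leukocyte and endothelial markers had 0 of 5 in each list, and of 5 mesenchymal markers Col1a1 alone had a peak, in every list but Tnm2 UNC0638.

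Among the stress and metabolic lists, the unfolded protein and heat shock response had 5 of 26 (19.2%), Hspa1b, Pdia4, Pdia6, Calr and Hsph1. Cholesterol synthesis had 4 of 22 (18.2%), among them Scap, Fdft1 and Lss. Interferon and antigen presentation had 4 of 20 (20%), Tapbp, Mavs, Irf1 and Irf3. DNA repair had 4 of 36 (11.1%), Chek2, Ercc1, Xrcc6 and Xrcc3, and the Nrf2 list 2 of 21 (9.52%), G6pdx and Gclc. Tapbp, the tapasin chaperone of MHC class I loading, scored 492.73 in CK1750 DMSO, 382.24 in CK1750 UNC0638 and 326.56 in Tnm2 DMSO. G6pdx, the first enzyme of the pentose phosphate pathway, scored 122.26, 215.03 and 248.75. At the common score shares these 5 lists had 3.35, 4.53, 3.32, 6.15 and 1.77. Their intervals all held the 13.1% of all protein-coding genes. Metalloproteinases, ADAMs and Timps had 0 of 7, with 1.35 at the common score shares.

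**Figure D5:**
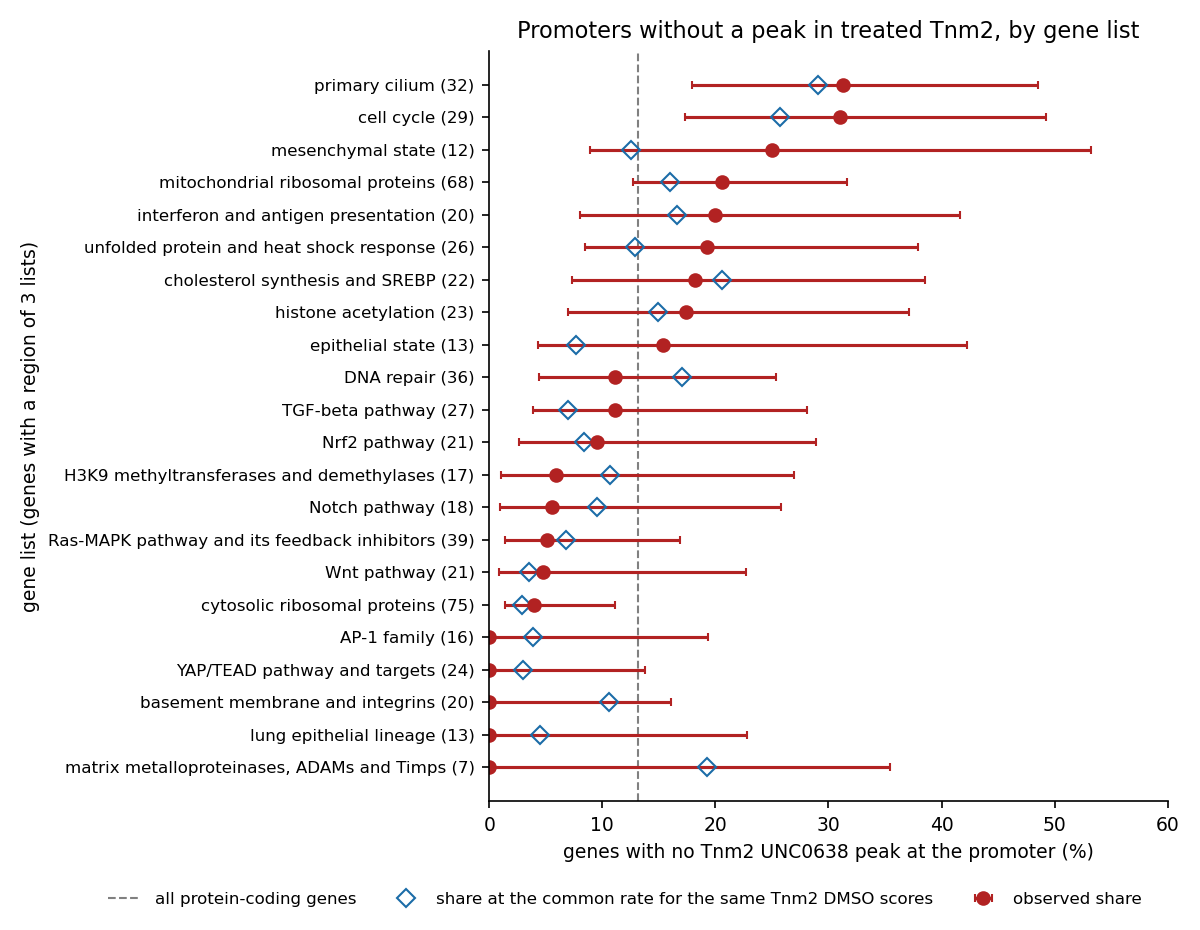
Share of genes with a region of the 3 lists at the promoter that had no Tnm2 UNC0638 peak there (horizontal axis, percent) for 22 gene lists (vertical axis, number of such genes in brackets), with Wilson 95% intervals. Diamonds give the share at the common rate for like Tnm2 DMSO scores and the dashed line the 13.1% of all protein-coding genes; primary cilium (31.2%) and cell cycle (31.0%) stand highest, with diamonds near their points.

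By chromosome, members were 9.84% of the regions of the 3 lists on chromosome 19 (62 of 630, interval 7.75 to 12.4%) and 35.9% on chromosome X (110 of 306, interval 30.8 to 41.5%), with the other chromosomes between. Median Tnm2 DMSO scores of these regions were 435.0 and 182.6 on the same chromosomes. Set against the common share for like scores, chromosome 19 had 0.701 times and chromosome X 1.15 times as many members. Chromosome 12 also stood at 1.15, with 121 of 500 regions. The range over chromosomes was therefore smaller once scores were alike.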

How the data were processed

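H3K27ac ChIP-seq of CK1750 and Tnm2 cells with DMSO or 1 µM UNC0638 was analysed from 4 peak lists. According to the study's methods and processing notes, the authors mapped reads to mouse build mm10 with Bowtie2 and called peaks with MACS 1.4.2 at a P cutoff of 1e-05. The deposited score of each peak is -10 log10 of P. The labels give 9 H3K27ac samples in 4 groups and assign each group to 1 merged list. Which libraries entered a list and which control was used are not given in the sources used here, and the study states more replicates than the labels number. The H3K9me2 and input samples (21) were not analysed here. Where several peaks of a list fell in a region, the highest score was used. Percentiles are ranks among the peaks of a list.

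TSSs and genes came from GENCODE release M21 and sequences from RefSeq (GRCm38.p6), whose promoter table held 77 of 91 listed genes with a member at a promoter. Members and gene lists were chosen with earlier results of these data known. Named members were the 10 with the highest Tnm2 DMSO score, the 10 with the highest lowest score, the 5 widest, the 3 nearest to and the 3 farthest from a Tnm2 UNC0638 peak, the 5 longest runs, the 5 genes with most members, and up to 4 examples per gene list. Part of these are described, and some are not reported here. Copies were sought with minimap2 2.31. Merging recovered the pattern of 6000 of 6000 regions in simulated lists, where peaks of a region always overlapped and regions never touched. Touching peaks and several peaks of 1 list in a region were not simulated. The scripts ran on Python 3.11.15 with matplotlib 3.10.9, scipy 1.17.1, pandas 2.3.3 and numpy 2.4.6. The alternatives were score minimums, equal numbers of peaks, merging and distance of 1 kb, a shared base, a width of at least 500 bp, other promoter definitions, and motifs in the region itself for widths of 500 to 1000 bp.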

Additional observations from a re-analysis of the deposited data

How the results depend on the processing

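No paired analysis was possible because each list pools the libraries of its group, and for the same reason no replicate could be left out. Of 48 alternative values for 7 results, 23 stayed within the limits used and 25 moved. The number of members fell to 1127 with scores of at least 100 in the 3 lists that have a peak, and to 1281 when each list was cut to its 18789 highest-scoring peaks. The share of members among regions of the 3 lists was 9.33% and 10.2% under these settings, 26.98% with scores of at least 100 in each list, 18.8% with peaks within 1 kb merged, and 18.4% with no Tnm2 UNC0638 peak within 1 kb. The promoter share was 62.7%, 60.3%, 62.0%, 50.8% and 50.7% in the same order, 54.7% with a window of 2.5 kb, and 43.9% with TSSs of protein-coding genes only. The settings with a score minimum or with equal numbers of peaks leave out low-scoring regions by construction. The setting with no Tnm2 UNC0638 peak within 1 kb left out members only, so their share among regions could only fall. A wider promoter window can only raise the promoter share, and fewer TSSs can only lower it. For the rest the cause was not tested. Removing regions with a near-identical copy, an alternative chosen after seeing the data, moved none of these 3 results. Depth is unknown and limits all shares, most of all close to the score cutoff.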

Other observations

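Histone genes, most of which are transcribed in S phase, headed the families of gene symbols, a grouping chosen after the values were seen. Of 28 families with at least 25 genes that had a region of the 3 lists at a promoter, symbols starting with Hist had the highest share without a Tnm2 UNC0638 peak, 18 of 58 (31.0%, interval 20.6 to 43.8%), with 15.4 at the common share for like Tnm2 DMSO scores. Hist was the 1 family whose interval lay wholly above the 13.1% of all protein-coding genes, and Rpl, with 1 of 46, the 1 family wholly below it. By region, 16 members lay at promoters of histone genes, all of them on chromosome 13, and so did 15 regions in all 4 lists on that chromosome. The 16 members had CK1750 DMSO scores from 166.66 to 800.69 with a median of 507, CK1750 UNC0638 scores from 100.01 to 545.98 with a median of 204, and Tnm2 DMSO scores from 51.7 to 294.41 with a median of 84.3. In percentiles the medians were 76.9, 53.5 and 29.9, and all 16 ranked higher in CK1750 DMSO than in Tnm2 DMSO. Histone promoter regions in all 4 lists went the same way in 18 of 22 cases, and in 12 of 15 on chromosome 13, with median percentiles of 88.3 and 71.7 over the 22. Membership went with a low Tnm2 DMSO score, whose rank enters this difference, so nothing is read from it for the 16 members. None of the 16 members had a near-identical copy by the criterion used, although histone genes resemble one another in part of their length. Of the 22 regions in all 4 lists, 2 had one.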
